A study of Mus musculus with 30 samples.

Results

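CXC chemokines are small chemoattractant proteins that guide leukocytes through G protein-coupled receptors. The genes examined were Cxcl1, Cxcl2, Cxcl9, Cxcl10, Cxcl12, Cxcl13, Cxcl14 and Cxcl16, chosen by gene name among the protein-coding rows of the deposited annotation, which gave 8 genes of the 30952 in the table and of its 17889 protein-coding genes. Their RNA was measured in microglia and astrocytes from the spinal cord of female C57BL/6 mice. EAE (experimental autoimmune encephalomyelitis), an induced autoimmune disease of the CNS, was started by immunization with the MOG35-55 peptide at 8 to 10 weeks of age. The groups were naive mice (n = 4), EAE mice given vehicle, 20% Captisol (n = 6), and EAE mice given the RIPK1 kinase inhibitor GSK'547 at 50 mg/kg, called EAE-RIPK1inh (n = 5). Dosing was by oral gavage, 2 times a day for 3 days, from a clinical score of about 1. The naive mice were neither immunized nor dosed as far as the labels say, so EAE-vehicle against naive compares disease, immunization and vehicle together. Microglia were sorted as CD11b+CD45intCX3CR1+ cells and astrocytes as GLAST+CD11b-CD45-CD140a- cells, which gave 15 libraries of each cell type.

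As background, CXC chemokines differ in the receptor they bind and therefore in the cells they attract. CXCL1 and CXCL2 carry the ELR motif, bind CXCR2 and draw neutrophils. CXCL9 and CXCL10 are induced by interferons and bind CXCR3 on activated T cells. CXCL12 binds CXCR4 and the scavenging receptor ACKR3, and CXCL13 binds CXCR5 on B cells. CXCL14 is made constitutively in many tissues. CXCL16 is made as a transmembrane protein, is shed by ADAM10 and binds CXCR6. In EAE and multiple sclerosis, chemokines made by glia are known for their part in bringing leukocytes into the CNS.

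Values are deposited log2 FPKM (fragment counts divided by exon length and by the total of the library), quantile-normalized over all 30 libraries. A gene was said to have no signal in a library where its value lay in the lowest stretch of values, which only followed the order of genes in the table. Genes with signal numbered 8710 to 20398 in microglia libraries and 6728 to 22981 in astrocyte libraries, and 3 libraries had fewer than 9000 (microglia naive 4, astrocytes naive 2 and astrocytes EAE-vehicle 1). Read counts were not available in this unit, so the depth is unknown and no counting error is given. The mean of 8 astrocyte markers was 7.65 to 9.46 in astrocyte libraries and 1.00 to 2.10 in microglia libraries. The mean of 10 microglia markers was 7.74 to 10.63 in microglia libraries and 0.88 to 3.45 in astrocyte libraries. Astrocyte libraries also held oligodendrocyte and neuron transcripts, with means of 5.89 to 10.09 for 6 oligodendrocyte and 3.26 to 5.99 for 4 neuron markers. The oligodendrocyte mean exceeded the astrocyte mean in EAE-vehicle libraries 2, 3, 5 and 6 and EAE-RIPK1inh libraries 3 and 4. The part of these cells in the chemokine values was not tested. Groups were compared with limma, and calls needed both a fold change above 1.5 and p below 0.05 before adjustment, while adjusted p covers all genes tested. The labels name no batch.

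All 8 genes had the same positions in the deposited annotation and in GENCODE M21 (GRCm38). Cxcl1 (chromosome 5, from 90891241 to 90893115) and Cxcl2 (chromosome 5, from 90903871 to 90905938) lay next to each other on the plus strand. Cxcl9 (chromosome 5, from 92321347 to 92328079) and Cxcl10 (chromosome 5, from 92346638 to 92348889) were neighbours on the minus strand, and Cxcl13 (chromosome 5, from 95956951 to 95961068) lay on the plus strand of the same chromosome. Cxcl12 was on chromosome 6 (from 117168535 to 117181367), Cxcl14 on chromosome 13 (from 56288643 to 56296551) and Cxcl16 on chromosome 11 (from 70453983 to 70459984). The annotation marks Cxcl10 and Cxcl16 as confounded with another gene, a mark that 15717 of the 30952 genes in the table carry. Cxcl10 lies wholly inside Art3 on the opposite strand, and Cxcl16 overlaps Zmynd15, also on the opposite strand, from 70459433 to 70459984. The library protocol did not mark strand, so reads of these overlapping pairs cannot be told apart.

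The 250 bases before the transcript start (RefSeq, GRCm38.p6), found for 7 of the 8 genes, are shown for 4 of them: the 3 genes with the largest rises in microglia and Cxcl14, which fell in astrocytes. Capitals mark matches to an interferon-stimulated response element core (ISRE, written GAAA, 2 bases of any kind, GAAA), an interferon gamma-activated sequence (GAS, written TTC, 3 bases of any kind, GAA) or an NF-kB site, searched on both strands. The windows are chr5:92348890-92349139 (Cxcl10, minus strand), chr13:56296552-56296801 (Cxcl14, minus strand), chr5:92328080-92328329 (Cxcl9, minus strand) and chr5:95956689-95956938 (Cxcl13, plus strand).
Cxcl10: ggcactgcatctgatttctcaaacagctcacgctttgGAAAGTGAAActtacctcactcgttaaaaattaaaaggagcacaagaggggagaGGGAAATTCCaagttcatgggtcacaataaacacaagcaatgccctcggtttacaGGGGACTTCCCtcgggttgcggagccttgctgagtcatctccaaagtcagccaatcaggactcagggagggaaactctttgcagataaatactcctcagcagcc
Cxcl14: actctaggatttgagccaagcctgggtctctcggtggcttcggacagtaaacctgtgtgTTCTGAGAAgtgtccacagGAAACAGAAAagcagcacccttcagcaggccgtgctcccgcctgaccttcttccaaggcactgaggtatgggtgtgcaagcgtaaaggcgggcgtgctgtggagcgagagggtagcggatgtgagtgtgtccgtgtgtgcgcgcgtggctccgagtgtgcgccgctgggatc
Cxcl9: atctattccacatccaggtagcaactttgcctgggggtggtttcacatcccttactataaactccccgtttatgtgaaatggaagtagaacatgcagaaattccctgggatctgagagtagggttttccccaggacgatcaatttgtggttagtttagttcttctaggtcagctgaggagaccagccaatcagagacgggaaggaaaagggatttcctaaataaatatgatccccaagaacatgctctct
Cxcl13: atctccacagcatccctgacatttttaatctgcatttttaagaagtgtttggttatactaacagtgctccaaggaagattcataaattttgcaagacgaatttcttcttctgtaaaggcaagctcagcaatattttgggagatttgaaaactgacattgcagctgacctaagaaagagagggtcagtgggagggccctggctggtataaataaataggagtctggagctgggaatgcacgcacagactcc
Cxcl10 held an ISRE core beginning 213 bases before the start and NF-kB matches beginning 159 and 104 bases before it, the last of which overlapped a further match beginning at 103. Cxcl14 held a GAS match at 191 and an ISRE core at 172 bases before the start. In the windows not shown, Cxcl1 had overlapping NF-kB matches beginning 71 and 70 bases before the start and Cxcl2 beginning 97 and 96 bases before it. None of the letters searched occurred in the windows of Cxcl9, Cxcl12 and Cxcl13. Of all 32851 promoter windows of this length, 2.98% held the ISRE core, 7.02% the GAS letters and 7.25% an NF-kB match, and a match is a description, not a shown binding site.

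**Figure D1:**
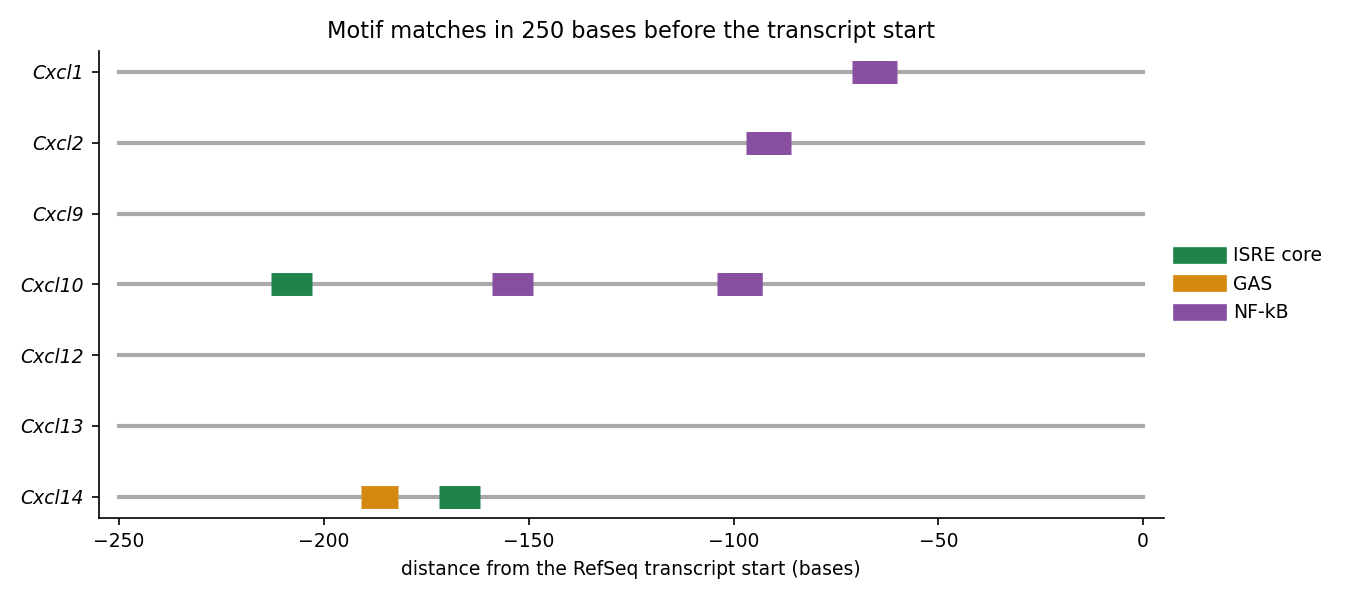
Motif matches in the 250 bases before the RefSeq transcript start of 7 CXC chemokine genes, where the x axis gives the distance from the start in bases and coloured boxes are matches to the ISRE core, GAS and NF-kB letters. Cxcl10 holds an ISRE core and NF-kB matches, Cxcl1 and Cxcl2 hold NF-kB matches 71 and 97 bases before the start, and Cxcl9, Cxcl12 and Cxcl13 hold none.

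**Figure D2:**
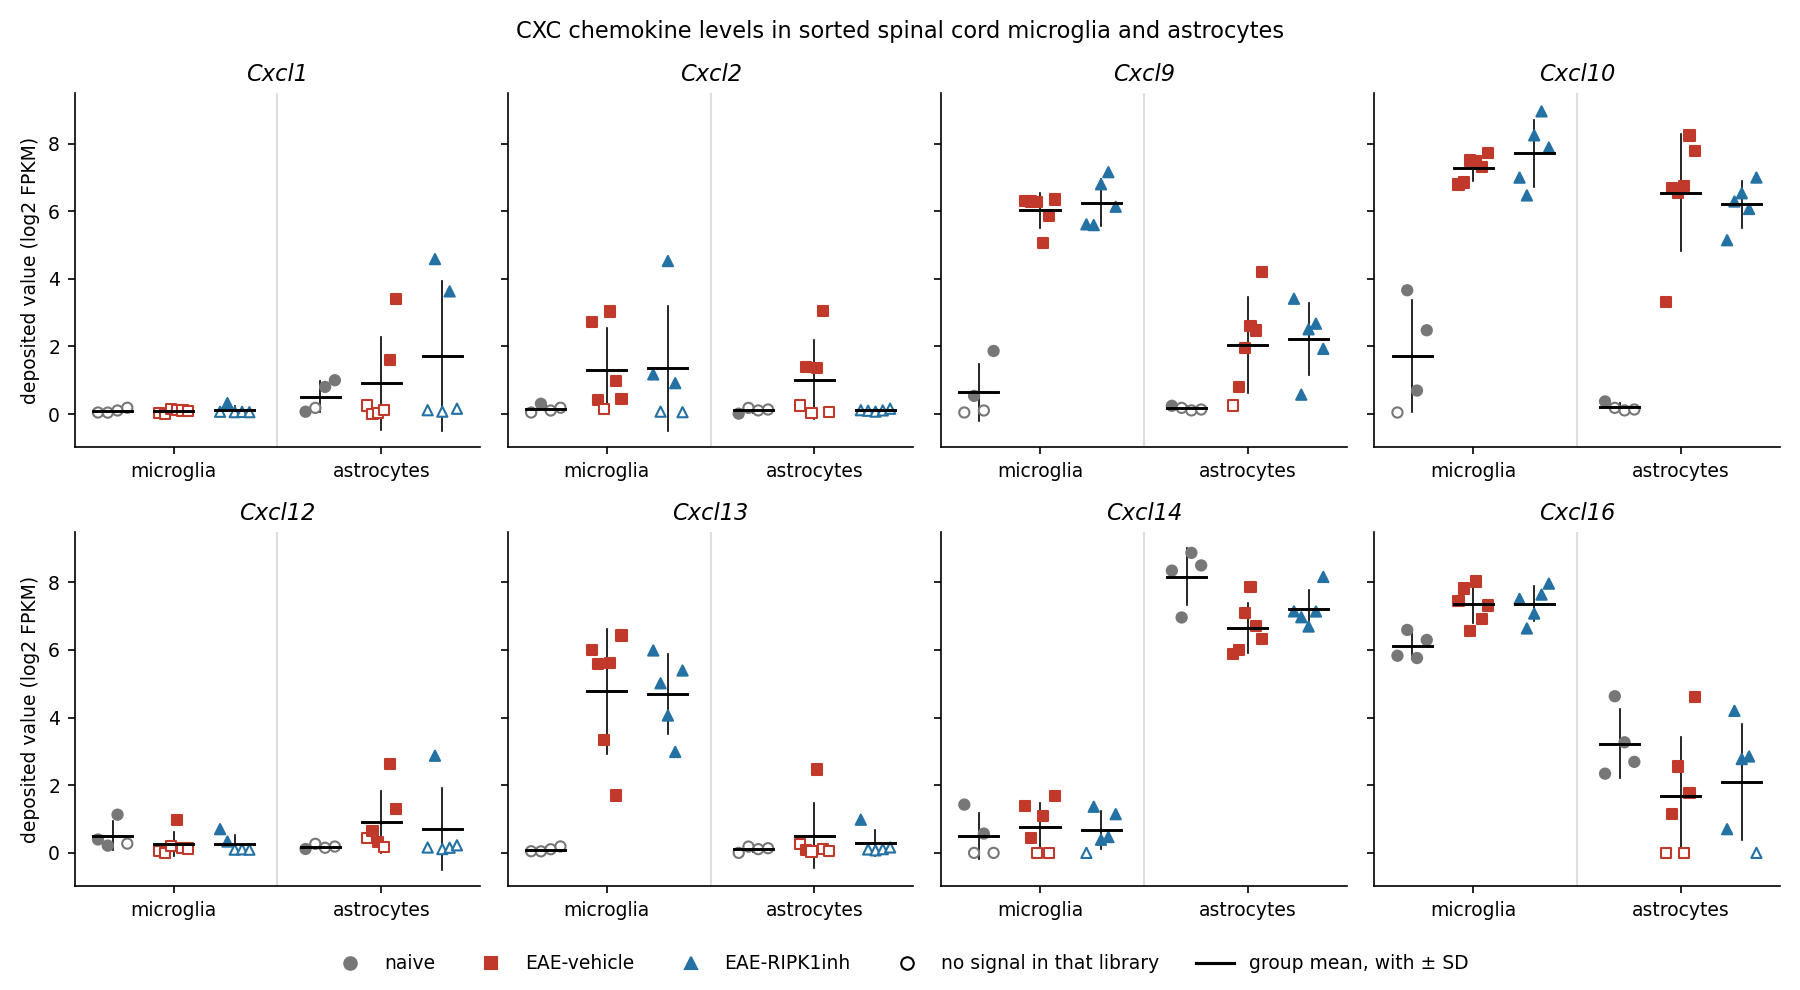
Deposited log2 FPKM (y axis) of the 8 CXC chemokines in each library of microglia and astrocytes (x axis), where grey circles are naive, red squares EAE-vehicle and blue triangles EAE-RIPK1inh mice, hollow symbols have no signal and black lines give the group mean ± SD. In microglia Cxcl9, Cxcl10 and Cxcl13 of every EAE library lie above all 4 naive libraries. In astrocytes Cxcl10 does so. The lowest EAE library of Cxcl9, EAE-vehicle library 1, has no signal, and values up to 2.74 had none there. Its place against the naive range is therefore not shown. Cxcl14 is the highest chemokine in naive astrocytes.

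The first comparison asked which chemokine transcripts differed in microglia between EAE-vehicle and naive mice. Cxcl9, Cxcl10, Cxcl13 and Cxcl16 rose and none of the 8 fell, so 4 of 8 genes were called where 12.0% of the 28958 genes tested were called in either direction, 6.13% higher and 5.86% lower. All 4 also passed at an adjusted p under 0.05, as did 3.92% of genes, though Cxcl16 narrowly (0.0437 in limma). Its adjusted p was 0.0203 to 0.120 with 1 library left out and up to 0.474 with centred libraries, and that of Cxcl13 was 0.143 with array quality weights. The ligands of CXCR3 rose most, by 5.38 log2 units for Cxcl9 and 5.55 for Cxcl10. The groups did not overlap for Cxcl9, Cxcl10 and Cxcl13, which was so for 2.93% of genes in this direction. The median difference of the 8 genes was 1.18 log2 units against -0.02 for all genes tested. In bulk libraries of sorted cells, fewer cells that make a transcript and less of it per cell cannot be told apart.

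Cxcl9 was at 0.05, 0.54, 0.11 and 1.87 log2 FPKM in the naive microglia libraries, with signal in the second and the fourth. In EAE-vehicle microglia it was at 6.30, 6.29, 6.28, 5.05, 5.87 and 6.35. Every EAE library was thus well above the highest naive one, and the mean rose from 0.64 ± 0.85 (SD, n = 4) to 6.02 ± 0.51 (SD, n = 6). The difference of 5.38 (limma standard error 0.42 and adjusted p 2.44e-06) had the smallest p that the exact permutation test allows, 0.004762, two-sided, and stood in 6 of 6 libraries.

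Cxcl10 was at 0.05, 3.66, 0.70 and 2.48 in naive microglia, more variable than any other member in that group. In EAE-vehicle microglia it was at 6.79, 6.85, 7.50, 7.49, 7.30 and 7.72, and every library was above the naive range. The mean rose from 1.72 ± 1.65 (SD, n = 4) to 7.28 ± 0.38 (SD, n = 6), a difference of 5.55 (limma standard error 0.62 and adjusted p 9.35e-05, and 0.004762 by the exact permutation test). The overlapping gene Art3 was at 0.09 to 3.91 in EAE-vehicle microglia, below every Cxcl10 value there, and at 0.05 to 1.04 in naive microglia, where the ranges of both genes overlapped.

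Cxcl13, the B cell attractant, had no signal in any of the 4 naive microglia libraries and signal in all 6 EAE-vehicle libraries, at 5.99, 5.59, 3.34, 5.62, 1.70 and 6.42. It was the most variable of the genes that rose, with library 5 at 1.70 and library 6 at 6.42. The mean was 4.78 ± 1.85 (SD, n = 6), and no fold is given against a group without signal (limma adjusted p 0.00406, and 0.009524 by the exact permutation test).

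Cxcl16 was the only member with clear signal in all 4 naive microglia libraries, at 5.83, 6.59, 5.76 and 6.30. In EAE-vehicle it was at 7.45, 7.82, 6.55, 8.03, 6.91 and 7.31, and only library 3, at 6.55, lay within the naive range. The mean went from 6.12 ± 0.39 (SD, n = 4) to 7.35 ± 0.55 (SD, n = 6), a difference of 1.23 (limma standard error 0.32 and adjusted p 0.0437, and 0.01429 by the exact permutation test). Zmynd15, which overlaps its first bases on the opposite strand, was at 0 to 2.84 in naive and 1.12 to 3.83 in EAE-vehicle microglia.

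The other 4 members were low in microglia and none was called. Cxcl1 had no signal in any naive or EAE-vehicle library. Cxcl2 was at 2.72, 0.42, 0.14, 3.04, 0.97 and 0.46 in EAE-vehicle against 0.05 to 0.31 in naive microglia (difference 1.13, 95% interval -0.65 to 2.91, limma), with libraries 1 and 4 high. Cxcl12 was between 0.00 and 1.13 in all 10 libraries and Cxcl14 between 0.00 and 1.67, and for both the groups overlapped.

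The sorted microglia held transcripts of other myeloid cells. The 9 monocyte and neutrophil markers had signal in 3 to 7 genes per naive library (Ccr2 and F13a1 in none), in 5 to 9 per EAE-vehicle library and in 4 to 9 per EAE-RIPK1inh library. The log2 of their summed level, taking each value as log2 of 1 plus its FPKM, was 7.84 to 13.74, 8.04 to 13.31 and 7.67 to 14.85 in these groups. For the 5 dendritic cell markers only the summed level was higher without overlap, with a log2 of 1.63 to 2.52 in naive, 3.31 to 4.14 in EAE-vehicle and 3.42 to 5.47 in EAE-RIPK1inh microglia. The mean of these markers was low, at 0.42 to 0.81, 0.85 to 1.10 and 0.94 to 1.55. Which of them carried the sum was not taken. The dendritic cell markers had signal in 0 to 4, 1 to 5 and 3 to 4 genes per library, and Ccr7 had none in naive or EAE-RIPK1inh microglia. The mean of the 10 microglia markers was 10.09 to 10.63 in naive and 7.74 to 8.33 in EAE-vehicle libraries, and so fell while the chemokines rose. Among these markers are Cx3cr1 and Siglech, homeostatic genes that the study itself reported as reduced in EAE microglia. Fewer microglia in the sort and less of these transcripts per cell cannot be told apart here. The part of any of these markers' cells in the rises was not tested.

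**Figure D3:**
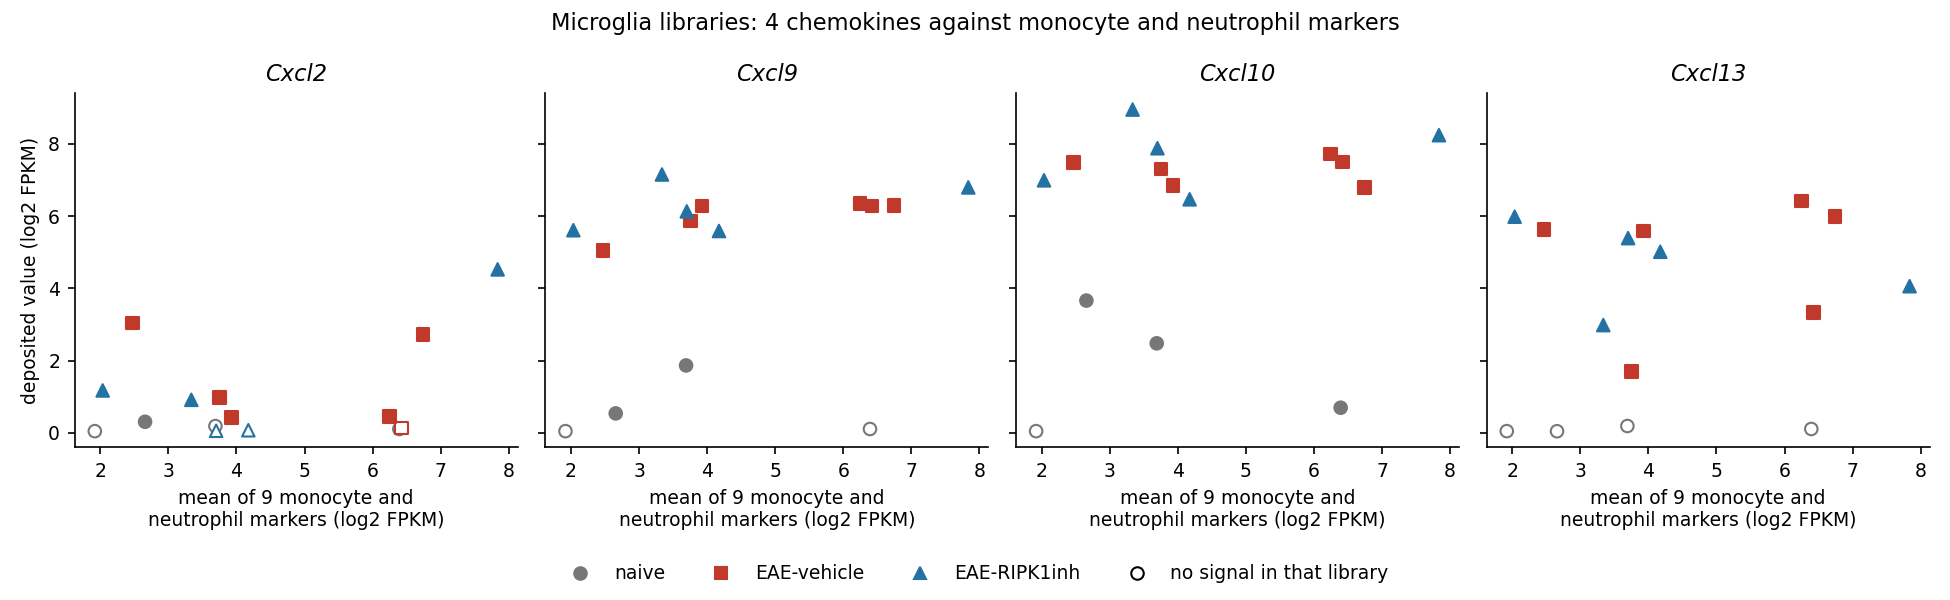
Deposited log2 FPKM of Cxcl2, Cxcl9, Cxcl10 and Cxcl13 (y axis) in the 15 microglia libraries against the mean log2 FPKM of 9 monocyte and neutrophil markers (x axis), with naive, EAE-vehicle and EAE-RIPK1inh libraries as grey circles, red squares and blue triangles and hollow symbols for no signal. The marker mean ranges from 1.92 to 6.39 in naive and from 2.47 to 6.74 in EAE-vehicle libraries, and the library with the highest mean, 7.84, also has the highest Cxcl2, 4.53.

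In astrocytes the same comparison called 3 of 8 genes where 6.71% of 30718 genes tested were called, 2.69% higher and 4.01% lower. Cxcl10 rose by 6.35 log2 units and Cxcl9 by 1.88, and Cxcl14, by level the main CXC chemokine of naive astrocytes, fell by 1.53. Of these, only Cxcl10 passed adjustment over all genes, as did 0.579% of genes. The count was also 3 without the 3 libraries under 9000 genes with signal, and 1 with libraries centred on the median of their genes with signal. The median difference of the 8 genes was 0.57 against 0.03 for all genes tested.

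Cxcl10 was at 0.38, 0.19, 0.11 and 0.14 in naive astrocytes, with signal in the first of them alone. In EAE-vehicle astrocytes it was at 3.32, 6.68, 6.54, 6.75, 8.24 and 7.77, and library 1, the one with the fewest genes with signal, stood well below the others. The mean was 0.20 ± 0.12 (SD, n = 4) in naive and 6.55 ± 1.72 (SD, n = 6) in EAE-vehicle mice, with no overlap, as for 1.02% of genes in this direction. The difference was 6.35 (limma standard error 0.74 and adjusted p 0.000395, and 0.004762 by the exact permutation test) and 6.99 without library 1. Art3 was at 0.06 to 4.12 in EAE-vehicle and 0.14 to 3.54 in naive astrocytes.

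Cxcl9 had signal in 1 of 4 naive astrocyte libraries, with all 4 between 0.11 and 0.25, and was at 0.26, 0.79, 1.95, 2.61, 2.47 and 4.21 in EAE-vehicle astrocytes. Library 1 had no signal, and values up to 2.74 had none in that library, so its place against the naive range is not shown. The difference of 1.88 (limma standard error 0.73 and adjusted p 0.511, and 0.01429 by the exact permutation test) did not pass adjustment. The call was lost with centred libraries (1.92, unadjusted p = 0.0672, limma) and with the replicate number as a block (1.38, unadjusted p = 0.0813, limma).

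Cxcl14 was at 8.35, 6.96, 8.87 and 8.50 in naive astrocytes and at 5.89, 5.99, 7.09, 7.85, 6.72 and 6.32 in EAE-vehicle astrocytes. Naive library 2, at 6.96, overlapped the EAE range, and all 6 EAE libraries were below the naive mean. The mean went from 8.17 ± 0.84 (SD, n = 4) to 6.64 ± 0.74 (SD, n = 6), a difference of -1.53 (limma standard error 0.45 and adjusted p 0.225, and 0.02857 by the exact permutation test), which fails adjustment. With centred libraries it was -1.48 and no longer called (unadjusted p = 0.111, limma). The mean of the 8 astrocyte markers was 8.87 to 9.46 in naive and 7.65 to 8.77 in EAE-vehicle astrocytes, so it moved with Cxcl14, and the mean of 6 oligodendrocyte markers was 5.89 to 7.41 in naive and 6.68 to 10.09 in EAE-vehicle astrocytes. Their part in the fall was not tested.

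The remaining members were not called in astrocytes. Cxcl16 was at 2.34, 4.63, 3.27 and 2.69 in naive and at 0.00, 1.15, 2.55, 0.00, 1.77 and 4.62 in EAE-vehicle astrocytes (difference -1.55, 95% interval -3.65 to 0.54, limma). It was called lower only without EAE-vehicle library 6 (-2.14) or with the replicate number as a block (-1.96). Cxcl1 reached 3.41 and 1.60 in EAE-vehicle libraries 6 and 5 and was at most 0.25 in the other 4, while naive libraries 3 and 4 were at 0.81 and 1.00. Cxcl2 reached 3.04, 1.39 and 1.36 in EAE-vehicle libraries 5, 2 and 4 and had no signal in the other 3 (difference 0.91, 95% interval -0.10 to 1.93, limma), and was called higher without library 1 (1.07), 3 (1.11) or 6 (1.10). Cxcl12 had signal in 4 of 6 EAE-vehicle libraries and Cxcl13 in 2 of 6, with highest values of 2.63 and 2.47.

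The astrocyte libraries of EAE mice held leukocyte transcripts in spite of the CD45- gate. The 8 T cell markers had signal in 1 to 5 genes per naive library (Cd3d, Cd2 and Lck in none) and in 5 to 8 genes per library of either EAE group. The log2 of their summed linear level was 1.90 to 5.11 in naive, 5.48 to 9.57 in EAE-vehicle and 6.02 to 9.37 in EAE-RIPK1inh astrocytes. For the 9 monocyte and neutrophil markers it was 0.56 to 4.34, 6.27 to 9.12 and 5.31 to 11.22, with 0 to 7, 5 to 8 and 4 to 6 genes with signal, and Ly6g had none in any astrocyte library. For the 10 microglia markers it was 5.66 to 6.68, 5.13 to 8.03 and 5.93 to 6.80. The T cell marker mean was lowest among the EAE-vehicle libraries in library 4, 1.46, where Cxcl10 was at 6.75. The part of these cells in the values of all 8 members was not tested.

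**Figure D4:**
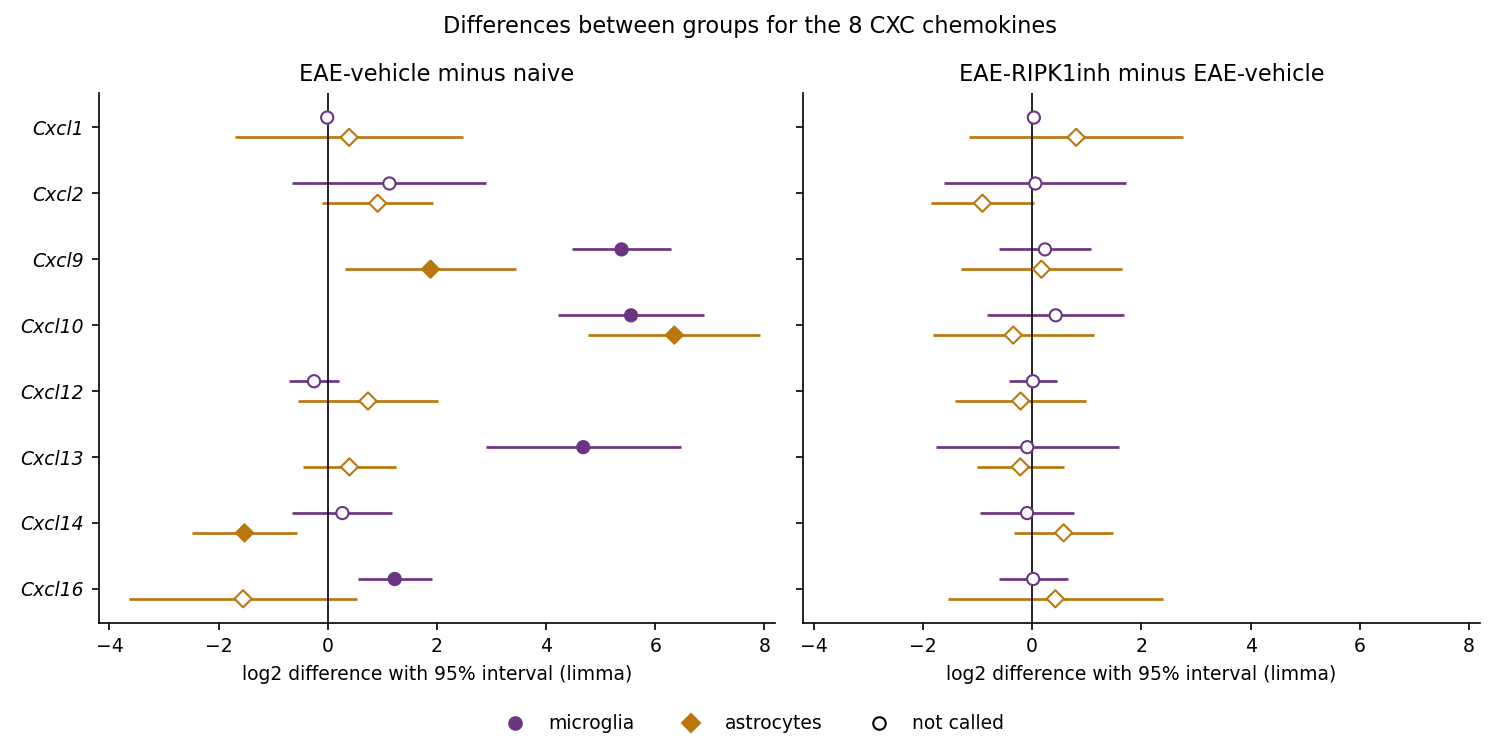
Log2 differences with 95% intervals from limma (x axis) for the 8 CXC chemokines (y axis), EAE-vehicle minus naive on the left and EAE-RIPK1inh minus EAE-vehicle on the right, with purple circles for microglia, orange diamonds for astrocytes and hollow symbols for genes not called. On the left 4 genes are called in microglia and 3 in astrocytes, and on the right all 16 symbols are hollow. Differences from a group without signal, such as that of Cxcl13 in microglia, are drawn as fitted and are not folds.

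The comparison of EAE-RIPK1inh with EAE-vehicle asked whether inhibiting RIPK1 kinase changed these transcripts during EAE. None of the 8 genes was called in microglia, where 1.76% of genes tested were called, and none in astrocytes, where 3.02% were. Without the 3 libraries under 9000 genes with signal, 2 of 8 (Cxcl2 and Cxcl10) were called lower in astrocytes and none in microglia. In astrocytes 928 of 30668 genes tested were then called, 469 of them lower, and no gene passed adjustment. The adjusted p was 0.764 for both members in limma. The smallest unadjusted p among the 16 tests was 0.0587 in limma and 0.1126 in the exact permutation test, both for Cxcl2 in astrocytes. The intervals leave room for changes of the size used for a call in most of these genes.

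In microglia Cxcl9 was at 5.61, 5.59, 6.80, 7.15 and 6.13 with the inhibitor, and Cxcl10 at 6.99, 6.47, 8.24, 8.95 and 7.88. Libraries 3 and 4 were above all 6 EAE-vehicle libraries for both genes, library 5 was above them for Cxcl10, and library 2 was the lowest treated library for both, so the groups overlapped. The differences were 0.23 for Cxcl9 (95% interval -0.61 to 1.08, limma) and 0.43 for Cxcl10 (-0.82 to 1.69). Cxcl13 was at 5.98, 5.01, 4.06, 2.98 and 5.39, within the range of EAE-vehicle (difference -0.09, -1.76 to 1.58). Cxcl16 was at 7.51, 6.64, 7.08, 7.64 and 7.96, also within that range (difference 0.02, -0.62 to 0.65). Its interval is the narrowest of the 4 genes with signal in every EAE microglia library and spans 1.5-fold in either direction.

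Cxcl2 in microglia was at 1.17, 0.07, 4.53, 0.92 and 0.06 with the inhibitor. Library 3, at 4.53, also had the highest mean of monocyte and neutrophil markers, 7.84, and Cxcr2, the receptor of CXCL2, at 4.06. Without it the difference from EAE-vehicle moved from 0.06 to -0.74 and remained uncalled. Cxcr2 was also high in naive library 3 (4.27) and EAE-vehicle library 3 (3.77), where Cxcl2 had no signal.

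In astrocytes Cxcl10 was at 5.14, 6.29, 6.53, 6.07 and 6.99 with the inhibitor, a difference of -0.35 from EAE-vehicle (95% interval -1.82 to 1.13, limma). Without EAE-vehicle library 1 it was -0.99 and called lower (unadjusted p = 0.0372, adjusted p = 0.817, limma), so this value turns on the library with the fewest genes with signal. Cxcl9 was at 3.41, 0.57, 2.51, 2.67 and 1.93 (difference 0.17, -1.30 to 1.64). Cxcl14 was at 7.14, 6.97, 6.69, 7.14 and 8.16, all 5 above the EAE-vehicle mean and 1 above its highest library (difference 0.58, -0.32 to 1.48). Against naive mice Cxcl14 was 0.95 lower with the inhibitor (-0.95, -1.95 to 0.05) and was not called. It was called there with array quality weights (-1.30), with the replicate number as a block (-1.07), and without naive library 2 (-1.35) or EAE-RIPK1inh library 5 (-1.19).

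Cxcl2 had no signal in any of the 5 EAE-RIPK1inh astrocyte libraries, against signal in 3 of 6 EAE-vehicle and 1 of 4 naive libraries (exact permutation p = 0.1126 against EAE-vehicle). It was called lower without EAE-vehicle library 1, 3 or 6, with differences of -1.07, -1.11 and -1.10, at adjusted p of 0.803 to 0.817 from limma. Its neighbour Cxcl1 was at 0.12, 4.58, 0.07, 3.63 and 0.16, with libraries 2 and 4 above the highest EAE-vehicle library, 3.41. Cxcl16 was at 0.70, 4.20, 2.77, 2.85 and 0.00, and Cxcl12 at 2.87 in library 2 alone.

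Against naive mice, which are the same naive libraries as above, EAE-RIPK1inh microglia had Cxcl9 (5.62), Cxcl10 (5.98), Cxcl13 and Cxcl16 (1.24) called higher, 4 of 8 where 10.1% of genes tested were called. In limma the adjusted p was 3.65e-06, 8.67e-05 and 0.00855 for Cxcl9, Cxcl10 and Cxcl13, and 0.063 for Cxcl16. In astrocytes Cxcl9 (2.05) and Cxcl10 (6.00) were called, 2 of 8 where 4.63% were, with an adjusted p of 0.800 and 0.0018. Both comparisons with naive share their controls, so the values stand side by side and their likeness is no result.

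Comparing the cell types within a group asked in which sorted cell fraction each chemokine was higher. In naive mice microglia had 7.67 log2 units less Cxcl14 than astrocytes (adjusted p = 2.28e-12, limma) and 2.89 more Cxcl16 (adjusted p = 0.0151), and these 2 of 8 were called where 19.7% of 30952 genes were. In EAE-vehicle mice microglia had 3.97 more Cxcl9, 4.27 more Cxcl13, 5.66 more Cxcl16 and 5.88 less Cxcl14 (4 of 8, background 22.4%), each with an adjusted p of 7.46e-06 or lower from limma. Cxcl10 differed by 0.73 (95% interval -0.55 to 2.00) and was not called. In EAE-RIPK1inh mice Cxcl9 (4.04), Cxcl10 (1.503), Cxcl13 (4.402) and Cxcl16 (5.26) were called higher in microglia and Cxcl1 (-1.60) and Cxcl14 (-6.55) lower, 6 of 8 where 21.7% were. The call for Cxcl10 there was lost without any of 5 libraries (microglia 3, 4 or 5, astrocytes 1 or 4, lowest difference 1.19), and that for Cxcl1 without astrocyte library 2 (-0.88) or 4 (-1.12), with centred libraries (-1.04) and with only the groups compared in the fit.

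Whether microglia and astrocytes changed unequally in EAE was tested by an interaction over all 30 libraries. It was called for Cxcl9 (3.50, adjusted p = 0.0353, limma), Cxcl13 (4.28, adjusted p = 0.0262), Cxcl14 (1.79, adjusted p = 0.269) and Cxcl16 (2.78, adjusted p = 0.296), 4 of 8 where 8.68% of genes were. In each the microglial change was the more positive, and only Cxcl9 and Cxcl13 passed adjustment, as did 0.982% of genes. Naive libraries of both cell types had no Cxcl13 signal, so its interaction rests on the EAE-vehicle levels and is not a difference of folds. With 1 library left out, the limma adjusted p reached 0.0824 for Cxcl9 and 0.0513 for Cxcl13, and under other settings up to 0.642 and 0.355, and both remained called before adjustment. The call for Cxcl14 was lost with centred libraries (1.97) and that for Cxcl16 without the 3 libraries under 9000 genes with signal (2.04). For Cxcl10 the interaction was -0.79 (95% interval -2.81 to 1.22). For the inhibitor no member had a called interaction (background 3.15%).

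Ordered by mean level, Cxcl9 was highest in EAE-RIPK1inh and EAE-vehicle microglia, which did not differ beyond their spread, then 3.80 log2 units lower in EAE-RIPK1inh astrocytes with no overlap. For Cxcl10 the order was EAE-RIPK1inh microglia, EAE-vehicle microglia, EAE-vehicle astrocytes and EAE-RIPK1inh astrocytes, in which neighbours were 0.73 or less apart and overlapped, and naive microglia followed 4.48 lower with no overlap. Cxcl13 dropped by 4.18 from EAE-RIPK1inh microglia to EAE-vehicle astrocytes. For Cxcl14 the lowest astrocyte group stood 5.88 above the highest microglia group, and for Cxcl16 naive microglia stood 2.89 above naive astrocytes. For Cxcl1, Cxcl2 and Cxcl12 every pair of neighbours in the order overlapped.

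Among the receptors, 2 of 8 rose and 1 fell in EAE-vehicle against naive astrocytes, where 2.69% of all genes were called higher and 4.01% lower, and none of 8 was called in microglia, where 12.0% were. Cxcr3, the receptor of CXCL9 and CXCL10, was at 0.01 to 1.49 in naive astrocytes, with signal in 1 library, and at 3.20, 4.79, 4.85, 3.99, 4.43 and 5.16 in EAE-vehicle astrocytes (difference 3.75, adjusted p = 0.0972, limma). Cxcr6, the receptor of CXCL16, had no signal in naive astrocytes and was at 6.65, 6.15, 5.72, 0.49, 7.43 and 6.46 in EAE-vehicle astrocytes, without signal in library 4 (adjusted p = 0.217, limma). The T cell marker mean was lowest, 1.46, in that same library 4. Cxcr3 and Cxcr6 are receptors of activated T cells. The T cell marker mean was 0.38 to 1.43 in naive and 1.46 to 5.90 in EAE-vehicle astrocytes. Within EAE-vehicle, Cxcr3 was higher in library 4 (3.99) than in library 1 (3.20), where the T cell marker mean was 3.90. Library 1 had the fewest genes with signal, 6728, and values up to 2.74 there had none, so its levels are imprecise. The part of T cells in the values of both receptors was not tested. Ackr3 fell by 1.72 (unadjusted p = 0.0373, limma) and lost its call without any of 8 of the 10 libraries. None of the 8 receptors was called with the inhibitor in either cell type.

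**Figure D5:**
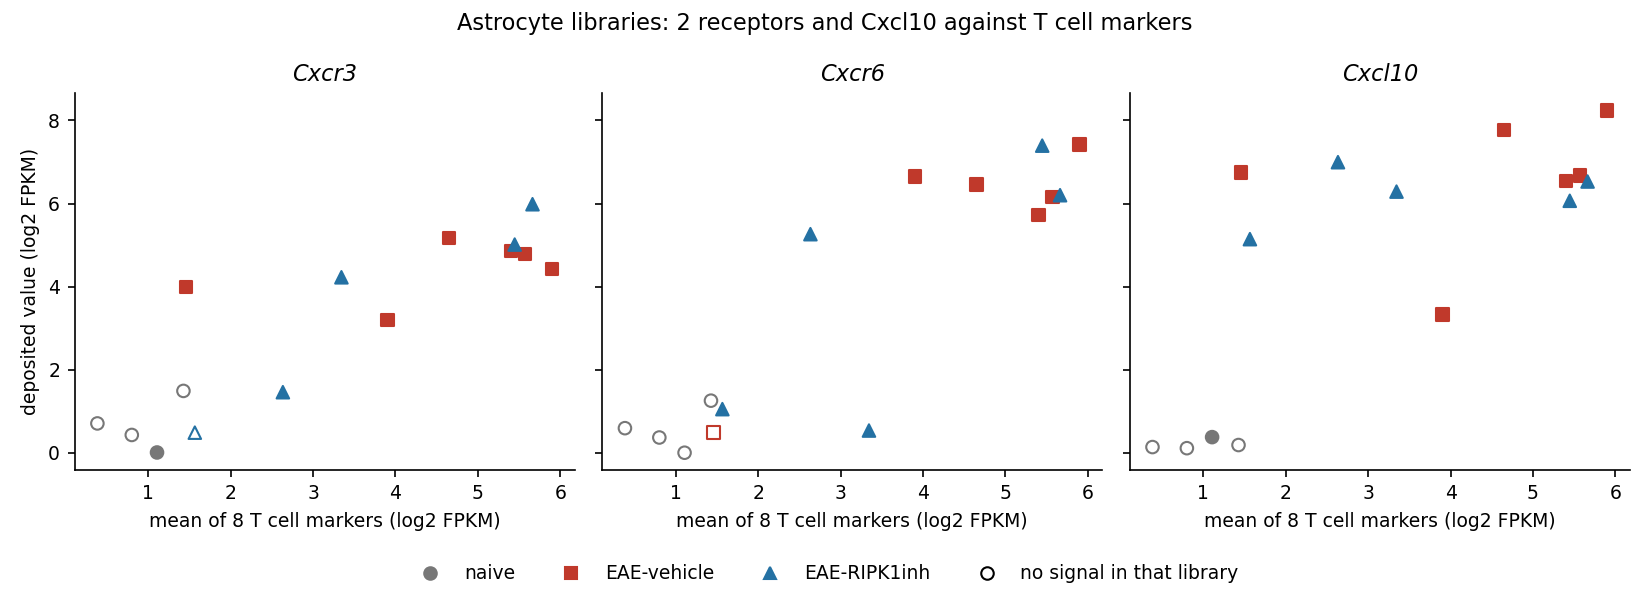
Deposited log2 FPKM of Cxcr3, Cxcr6 and Cxcl10 (y axis) in the 15 astrocyte libraries against the mean log2 FPKM of 8 T cell markers (x axis), with naive, EAE-vehicle and EAE-RIPK1inh libraries as grey circles, red squares and blue triangles and hollow symbols for no signal. The libraries with marker means of at least 3.90 all have Cxcr3 and Cxcr6 with signal, while Cxcl10 is at 5.14 and 6.75 in the EAE libraries with means of 1.57 and 1.46.

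Of 6 further CXC ligands in the table, none was called between EAE-vehicle and naive mice in either cell type. Cxcl11, a further CXCR3 ligand that the annotation lists as a polymorphic pseudogene in this reference, was at 0.59, 0.96, 0.14, 0.13, 0.67 and 1.45 in EAE-vehicle microglia and at 2.21, 1.74, 2.10, 1.94 and 0.96 with the inhibitor. It was called higher with the inhibitor (difference 1.13, unadjusted p = 0.00322, adjusted p = 0.930, limma), and the groups overlapped. Of the 3 genes for proteases that shed or trim chemokines (Adam10, Adam17 and Dpp4), none was called between treatment groups in either cell type.

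Of 13 genes of cytokine receptors and transcription factors upstream of chemokine genes, 1 rose and 4 fell in EAE-vehicle against naive microglia, where 6.13% of all genes were called higher and 5.86% lower. Irf1, an interferon-induced transcription factor, rose by 2.38 (adjusted p = 0.0454, limma). Ifngr1, a chain of the interferon gamma receptor, fell by 2.00 (adjusted p = 0.00179), and Ifnar2 (-1.09), Il17ra (-1.51) and Nfkb1 (-1.03) were lower too, though with centred libraries the last 3 were not called. In astrocytes Irf1 rose by 4.38 (adjusted p = 0.0368, limma), and the other 12 genes were not called. With the inhibitor only Ifnar2 in microglia was called among the 13 (0.79, unadjusted p = 0.00649, adjusted p = 0.930, limma), and not with centred libraries (0.92, unadjusted p = 0.129).

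The genes whose levels followed each chemokine most closely over the 15 libraries of a cell type were taken from 9699 protein-coding genes in microglia and 10409 in astrocytes, for members with signal in at least 12 libraries. In microglia they were Ly6i (r = 0.99), H2-Aa (r = 0.98) and H2-Eb1 (r = 0.98) for Cxcl9, H2-Q6 (r = 0.99), Hcar2 (r = 0.98) and H2-K1 (r = 0.97) for Cxcl10, and Tlr2 (r = 0.91), Pdyn (r = 0.89) and Nectin2 (r = 0.84) for Cxcl16. In astrocytes they were C4b, Psmb9 and Oasl2 for Cxcl10 (r = 0.96, 0.96 and 0.96), Gpr37l1, Slc1a2 and Slc3a2 for Cxcl14 (r = 0.93, 0.92 and 0.92) and Pex10, Cpsf7 and Ppcs for Cxcl16 (r = 0.89, 0.87 and 0.83). These correlations describe libraries that share groups and processing, and the differences between groups carry much of each.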

How the data were processed

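RNA of microglia and astrocytes sorted from spinal cords was sequenced after oligo(dT) selection, template-switching cDNA amplification and Tn5 fragmentation. The authors quantified FPKM in OmicSoft Array Studio, normalized it and deposited 1 table of log2 values, which is quantile-normalized over 30 libraries, since all 30952 sorted values are identical in every library. The offset added before the logarithm, the aligner and the annotation release are not given in the sources used here. Methods for the software are stated for the study's culture libraries. Columns were matched to groups through the sample labels. The lowest values in each library rise with gene order, and genes there were taken to have no signal.

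Groups were compared with limma 3.58.1 in R 4.3.3 (lmFit, eBayes with a trend), all groups of a cell type fitted together over 28958 genes in microglia or 30718 in astrocytes, and all 30 libraries in 1 fit of 30952 genes for cell types and interactions. P-values were adjusted by Benjamini-Hochberg over all genes. Members also had exact two-sided permutation tests, whose smallest p is 0.004762 for 4 against 6, 0.002165 for 5 against 6 and 0.007937 for 4 against 5 mice. The fits were tested on simulated data, drawn as independent normal values for genes with a mean of at least 1. The simulation had no values without signal and no effects shared by a library, so it does not cover low members. The study's paired test was not used, because the labels do not say what pairs the mice. Deviations from the group mean of same-numbered libraries had r of -0.17 to 0.24 over 26 pairs within a cell type. Across cell types r was -0.04 to 0.12 over 15 pairs. The range of r for libraries with different numbers was not taken, so these values do not decide whether libraries are paired. Whether same-numbered microglia and astrocyte libraries come from 1 mouse is not stated.

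The members and gene lists were chosen with earlier results of these data known, and 1 gene of the upstream list is not reported here. Named genes were the 8 members, genes of the further ligand, receptor, protease and upstream lists called in EAE-vehicle against naive or EAE-RIPK1inh against EAE-vehicle, and for each member with signal in at least 12 libraries the 3 protein-coding genes with a mean of at least 1 and the highest Pearson r. Alternatives were adding 1 on the linear scale before the logarithm, a mean of at least 1, values without signal set to 0, centring, array quality weights, only the groups compared, no trend, the replicate number as a block, each library left out and, added after seeing the data, the 3 libraries with under 9000 genes with signal left out.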

Additional observations from a re-analysis of the deposited data

Results flagged for a closer look

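In 43 groups of a member with 4 to 6 libraries, 8 had a library apart from the others by Dixon's test. Chance gives about 1 in 20 for normally distributed values, a rate not checked for groups with libraries without signal. The flagged groups of Cxcl1 and Cxcl12 in microglia, and of Cxcl12 and Cxcl13 in EAE-RIPK1inh astrocytes, had signal in 1 library alone. The number flagged is therefore not set against chance. In microglia these were Cxcl1 in EAE-RIPK1inh library 2 (0.3251 log2 FPKM, the only microglia library with signal), Cxcl2 in EAE-RIPK1inh library 3 (4.5261, next 1.1741), Cxcl9 in EAE-vehicle library 4 (5.0493, the lowest, next 5.8704) and Cxcl12 in EAE-vehicle library 4 (0.967, next 0.1942). In astrocytes they were Cxcl10 in EAE-vehicle library 1 (3.3221, the lowest, next 6.54), Cxcl12 in EAE-RIPK1inh library 2 (2.8716, next 0.224), and Cxcl13 in EAE-vehicle library 4 (2.4659, next 0.2568) and EAE-RIPK1inh library 1 (0.9799, next 0.1609). Astrocyte EAE-vehicle library 1 is the library with the fewest genes with signal, 6728.

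The change in EAE differed between the cell types for Cxcl9, by 3.5005 log2 units (adjusted p = 0.0353, interaction in limma), and for Cxcl13, by 4.2834 (adjusted p = 0.0262), with the larger rise in microglia. Cxcl13 had no signal in any naive library of either cell type. Its value therefore rests on the EAE-vehicle levels and is not a difference of folds. With 1 library left out the adjusted p reached 0.0824 and 0.0513, and under other settings 0.642 and 0.355.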

How the results depend on the processing

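Of 522 alternative values for 59 differences, with no library left out singly, 489 kept their direction and side of the threshold, 16 lost a call, 6 gained one and 11 changed sign. Of 642 values with 1 library left out, these numbers were 594, 15, 8 and 25. None of the values that changed sign was called. The number of members called did not move by more than 1.5 times in microglia. In astrocytes, EAE-vehicle against naive called 3 members, 1 with centred libraries and 3 to 5 with 1 library left out (5 without EAE-vehicle library 6). EAE-RIPK1inh against EAE-vehicle called 0, 1 with array quality weights, 1 with the replicate number as a block, 2 without the 3 libraries under 9000 genes with signal, and 0 to 2 with 1 library left out. Without the 3 libraries 928 of 30668 genes tested were called and none passed adjustment. EAE-RIPK1inh against naive called 2, 1 with centred libraries, and 3, with Cxcl14 lower, under array quality weights, the block, without those 3 libraries, or without naive library 2 or EAE-RIPK1inh library 5. Between the cell types in EAE-RIPK1inh 6 were called, and 4 to 7 with 1 library left out.

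Differences between EAE-RIPK1inh and EAE-vehicle that changed sign were, in microglia, Cxcl2 (-0.13 with array quality weights, -0.109 with the block, -0.7362 to 0.4071 with 1 library left out), Cxcl13 (0.0385 centred, 0.0892 with weights, 0.2392 with the block, -0.7066 to 0.3355), Cxcl14 (0.0351 centred, 0.0871 with the block, -0.2665 to 0.0871) and Cxcl16 (-0.1403 to 0.2001), and in astrocytes Cxcl9 (-0.1816 centred, -0.2543 with weights, -0.1896 without the 3 libraries, -0.1896 to 0.6021), Cxcl12 (-0.7543 to 0.1295) and Cxcl16 (-0.1 to 1.0106). For EAE-vehicle against naive it was Cxcl1 in astrocytes (-0.0668 with the block, -0.1111 to 0.5716). The cause was not tested.

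The replicate number as a block ended the call of Cxcl9 in astrocytes in EAE (1.3774) and of Ackr3 (-1.8179), gave calls to Cxcl16 there (-1.9611), to Cxcl2 in EAE-RIPK1inh against EAE-vehicle astrocytes (-1.1039) and to Cxcl14 in EAE-RIPK1inh against naive astrocytes (-1.07), gave a call to Cxcl10 in naive microglia against naive astrocytes (1.52), and ended none in microglia. Of 15 microglia libraries, 4 correlated best with the astrocyte library of their own number. Each had only the 4, 6 or 5 astrocyte libraries of its treatment to match, so a few such matches are expected by chance. With centred libraries the median difference of all genes was 0.21 in microglia and 0.07 in astrocytes for EAE-vehicle against naive, 0.11 and -0.38 for EAE-RIPK1inh against EAE-vehicle, and 0.32 and -0.31 for EAE-RIPK1inh against naive. The genes called in these 6 comparisons were then 2135 (1570 higher) in place of 3473 (1775), 988 in place of 2060, 189 (159) in place of 511 (308), 354 (50) in place of 927 (564), 1833 (1592) in place of 2911 (1548) and 737 (186) in place of 1421 (609). Between the cell types centring gave 3947 in place of 6088 in naive mice and 5215 (3981 higher) in place of 6729 (3624) in EAE-RIPK1inh mice, and for the interactions 1130 (784) in place of 2686 (1537) and 305 (286) in place of 976 (461). Array quality weights gave 2730 in place of 511 in microglia and 3698 in place of 2060, 3152 in place of 1421 in astrocytes, and 1604 in place of 976 for the interaction with the inhibitor, where a mean of at least 1 gave 557. Depth is unknown in this unit, so the precision of low values rests on the libraries alone.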
